A study of Mus musculus with 3 samples.

Results

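The genes described here are 9 that mark naive and memory T cells, Tcf7, Lef1, Slamf6, Il7r, S1pr1, Klf2, Bach2, Ccr7 and Bcl11b. They were chosen by name from the 32285 genes of the deposited matrices, though with earlier results of these data known. Their counts were followed in 5 classes of cells set by other transcripts. Cd8a T cells had a transcript of Cd3e and of Cd8a and none of Cd4 or Foxp3, and were divided by whether they also had a transcript of Pdcd1, the gene of the inhibitory receptor PD-1. Cd4 T cells had Cd3e and Cd4 without Cd8a or Foxp3, Foxp3 T cells had Cd3e and Foxp3 without Cd8a, and Ncr1 NK cells had Ncr1 without Cd3e. The vehicle, p38i and p38KO libraries held 159, 136 and 51 Cd8a T cells with Pdcd1, 122, 104 and 113 without it, 116, 148 and 178 Cd4 T cells, 71, 113 and 99 Foxp3 T cells and 129, 125 and 162 Ncr1 NK cells.

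The study compared the leukocytes of mammary tumors in which p38 kinase was blocked by a drug or its form p38α was missing from the tumor cells. The drug, which the study describes as selective for p38α and p38β, was given to the whole animal. All hosts were female BALB/c mice, 6 to 8 weeks old at implantation, with wild-type leukocytes, and all tumors grew from 4T1-luc cells, a mouse mammary carcinoma line that carries luciferase. Vehicle and p38i tumors came from cells with intact p38α, and from day 4 these mice received DPBS or the p38 inhibitor LY2228820 (ralimetinib, 30 mg/kg by daily gavage) for 10 days. The p38KO tumors came from H9, 1 clone in which CRISPR-Cas9 had inactivated Mapk14, the gene of p38α, and the labels give these mice no treatment. On day 14 the tumors of 3 mice per group were pooled, and live CD45+ cells were sorted and sequenced as 1 library per group from the 3' ends of transcripts. With no replicate library no test between groups was possible, and condition, batch and, for p38KO, clone cannot be told apart.

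T cells that have not met antigen, and memory cells that can renew themselves, share a program kept by transcription factors. TCF-1 (Tcf7) and LEF1 act with the Wnt and T cell receptor pathways, KLF2 turns on the genes that let a T cell leave tissue and recirculate, BACH2 holds back effector genes, and BCL11B maintains T cell identity. At the surface, IL-7 receptor gives a survival signal, CCR7 guides cells toward lymph nodes, S1PR1 guides them out of tissue into lymph and blood, and SLAMF6 marks progenitor-like cells in chronic infection and tumors.

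After removal of cells with under 1500 unique molecular identifiers (UMIs, the tags that count each captured transcript once), under 300 genes or over 20% mitochondrial counts, 3820, 4793 and 3859 cells remained. The 15 class and library sums held 345835 to 1376726 UMIs, with a median of 3210 to 7095 UMIs and 2.16% to 3.19% mitochondrial counts per cell. In the 4 T cell classes all 5 further T cell markers (Cd3d, Cd3g, Trac, Trbc2 and Lat) were found in every library, with a summed level of 4210 to 5547 CPM (counts per 1000000 UMIs of the sum). Ncr1 NK cells had all 5 NK markers at 6349 to 8987 CPM, but also all 5 T cell markers at 302 to 460 CPM, although Cd8b1 was at 0. Foxp3 T cells had all 4 regulatory T cell markers (Il2ra, Ctla4, Ikzf2 and Tnfrsf18) at 3579 to 4763 CPM. These 4 were found in every other sum too, at 938 to 1171 CPM in Cd4 T cells. Cd8b1 was found in every Cd8a T cell sum, at 664 to 1081 CPM, and in the Cd4 and Foxp3 T cell sums at 2.91 to 20.3 CPM. Levels below are CPM of the counts summed over the cells of a class, and brackets hold 95% intervals (exact Poisson for a level, exact binomial for a ratio, Clopper-Pearson for a share), all for counting error only. A difference is called past the fold where its log2 ratio to vehicle is at least 0.5 either way and both libraries together hold at least 50 counts. Between 5 and 9 cell barcodes were shared by each pair of libraries.

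Of the 45 pairs of a gene and a class, 34 had enough counts in each comparison. In the p38i library 4 of the 34 were past the fold upward and 10 downward, where 9.03% and 7.69% of all genes measured in these classes were. In the p38KO library 1 was past it upward and 17 downward, against 13.2% and 9.28% of all genes. The lower pairs of p38KO belonged to 7 genes, and were spread over all 5 classes. Those of p38i belonged to 6 genes, and 5 of the 10 lay in 1 class, the Cd8a T cells with Pdcd1. Both comparisons use the same vehicle library, so they are not independent of each other. The genes behind the shares over all genes were not matched to the members by count. The rule for the fold does not use the counting intervals. Among the upward pairs of p38i those of Lef1 and S1pr1 include 0 and that of Il7r does not, and those of some lower pairs include 0 too.

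**Figure D1:**
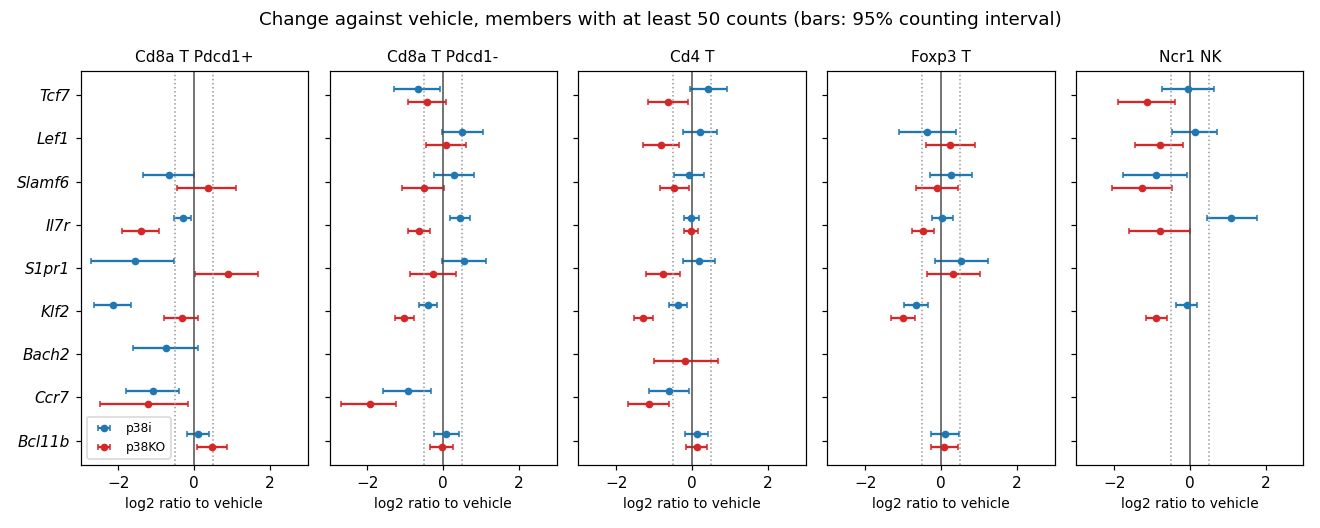
Log2 ratio of each gene to the vehicle library in 5 cell classes, for p38i (blue) and p38KO (red). Points are ratios of summed counts, bars are 95% counting intervals, dotted lines mark 0.5 either way, and genes with under 50 counts over both libraries are left out. Klf2 and Ccr7 lie left of 0 wherever they are shown, and Bcl11b stays between the dotted lines.

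By class, the Cd8a T cells with Pdcd1 of the p38i library had 5 of 7 measured members past the fold downward (background 6.48%) and 0 upward (8.99%). The same class of the p38KO library, which held few cells, had 2 of 6 downward (12.2%) and 1 upward (15.3%). Cd8a T cells without Pdcd1 had 2 of 8 members lower (6.99%) and 2 higher (8.44%) with p38i. With p38KO this class had 4 of 8 lower (7.43%) and 0 higher (12.1%). The median log2 ratio of the measured members in this class was 0.19 with p38i and -0.47 with p38KO, and in the cells with Pdcd1 -0.74 and 0.016, where the median over all genes lay between 0.049 and 0.076. Whether the drug and the knockout differed from each other was not tested.

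Cd4 T cells had 1 of 8 members lower with p38i (7.36%) and 0 higher (12.5%), a share near the background. They had 5 of 9 lower with p38KO (6.14%) and 0 higher (15.3%). Foxp3 T cells had 1 of 6 lower (8.77%) and 1 higher (9.33%) with p38i, and 1 of 6 lower (8.66%) and 0 higher (13.4%) with p38KO. Ncr1 NK cells had 1 of 5 lower (9.26%) and 1 higher (6.51%) with p38i. With p38KO all 5 measured members were lower in NK cells (11.4%) and 0 higher (10.4%). Their median was -0.89, beside -0.031 over all genes, and that in p38KO Cd4 T cells was -0.64, beside 0.072.

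All 9 genes were highest in Cd4 T cells by the middle value of the 3 libraries. For 25 of the 36 neighbouring classes in these orders the ranges over the libraries overlapped, so most neighbours could not be ranked. The range of Cd4 T cells was apart from that of the next class for Il7r and Bach2 alone. Within the p38KO library Cd4 T cells were not highest for Tcf7, Lef1, S1pr1 and Klf2. There Tcf7 had 62.1 CPM against 74.00 in Cd8a T cells without Pdcd1. Within vehicle they were not highest for Tcf7 and Bcl11b. The share of all genes highest in Cd4 T cells was not computed. Ncr1 NK cells were lowest for 5 genes, of which Bcl11b, Ccr7 and S1pr1 had no more than 7 counts in any NK library. Foxp3 T cells were lowest for Tcf7 and Bach2, and Cd8a T cells with Pdcd1 for Klf2 and Lef1.

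**Figure D2:**
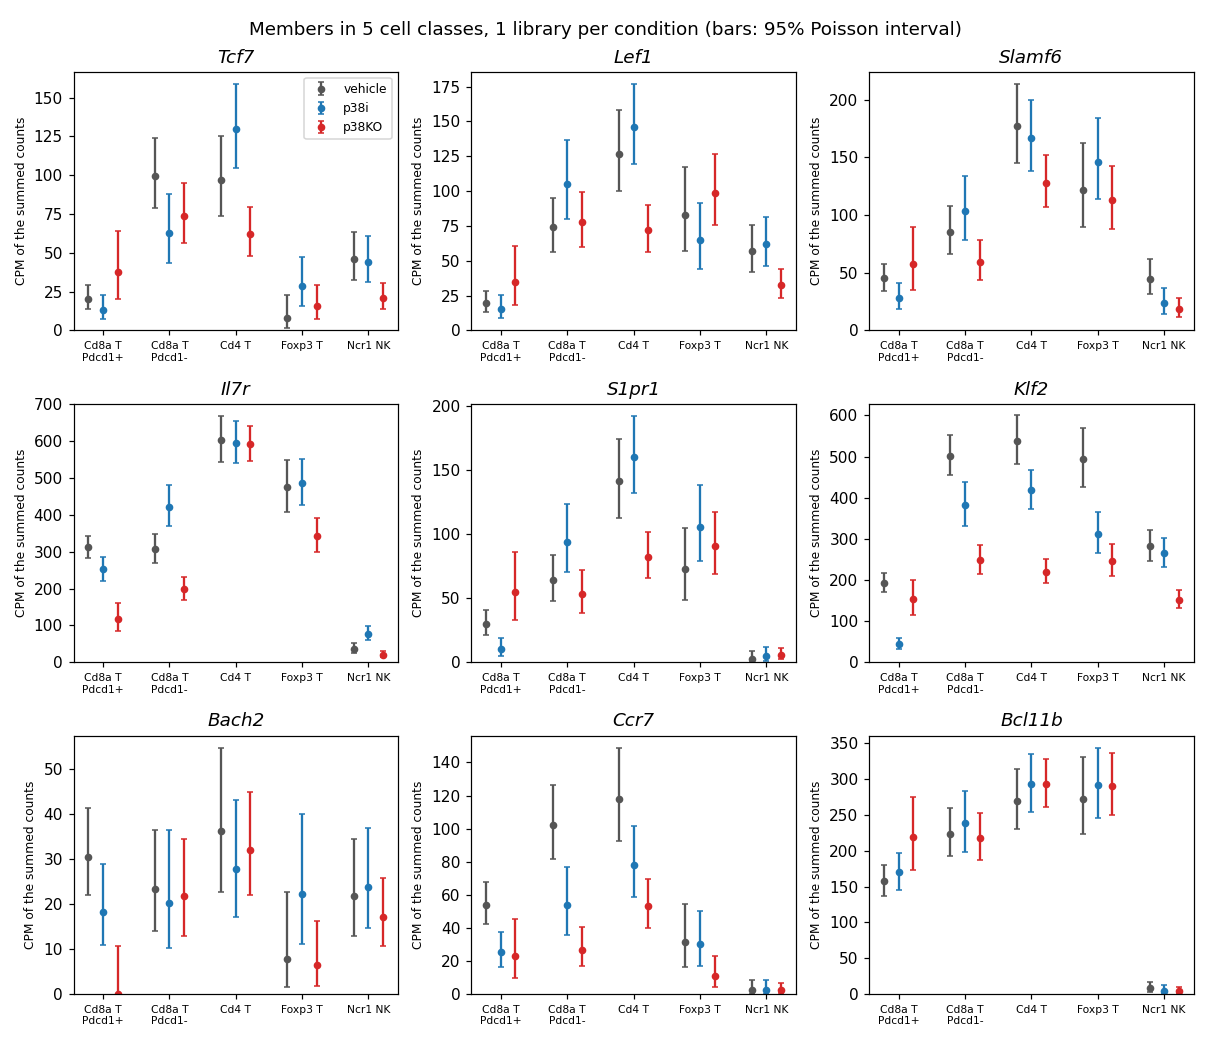
Level of each gene in CPM (y axes start at 0) in 5 cell classes (x axes) of the vehicle (grey), p38i (blue) and p38KO (red) libraries. Points are CPM of the summed counts of 1 library and bars are 95% Poisson intervals. Cd4 T cells have the highest middle value of every gene, though not the highest value in every library. The red points of Klf2 and Ccr7 lie below the grey ones in every class where the gene was measured.

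Klf2 (ENSMUSG00000055148, chromosome 8 from 72319033 to 72321656, plus strand, GRCm38) encodes the Krüppel-like factor that drives S1pr1 in resting T cells. Its promoter is shown because Klf2 was the only member with enough counts in all 5 classes and a ratio below 1 in every one of them in both comparisons. The stretch lies at chr8:72318812-72319032 of GRCm38.p6 on the plus strand, ends where the annotated gene begins, and comes from RefSeq's table. Capitals mark a match to the motif of MEF2 factors (CTA, any 4 bases, TAG), which are known to act on this gene in other cell types.
Klf2: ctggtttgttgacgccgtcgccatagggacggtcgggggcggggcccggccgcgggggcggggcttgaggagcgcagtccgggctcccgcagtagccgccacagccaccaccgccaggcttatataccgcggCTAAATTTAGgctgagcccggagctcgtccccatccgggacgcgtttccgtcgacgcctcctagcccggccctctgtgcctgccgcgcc
The motif spans the bases 118 to 109 before the RefSeq start. It reads the same on both strands and occurs in 3.69% of the 32851 windows of that table, each from 250 bases before to 50 after a start. Of the 7 members with a window there, Klf2 alone held this motif. The AP-1 motif TGANTCA (7.81% of windows, both strands) was found in 0 of the 7, and the Krüppel-like motif CCACACCC (3.56%, both strands) in Tcf7 alone. Such matches describe the letters and say nothing about binding in these cells.

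In Cd8a T cells with Pdcd1, Klf2 stood at 192 (170.0 to 217), 43.7 (31.6 to 58.9) and 153 (115 to 200.5) CPM, given here and below for vehicle, p38i and p38KO in turn. The p38i value was far below the other two, with a log2 ratio to vehicle of -2.14 (-2.64 to -1.67), while that of p38KO was -0.33 (-0.78 to 0.10) and not past the fold. Those without Pdcd1 had 502 (455 to 553), 382 (332 to 438) and 247 (215 to 284) CPM. Here the p38KO library was lowest with a log2 ratio of -1.02 (-1.27 to -0.77) and the p38i library lay between, at -0.39 (-0.64 to -0.15). Cd4 T cells had the same order with 538 (482 to 600.0), 418 (372 to 468) and 220.3 (193 to 251) CPM, and log2 ratios of -0.37 for p38i and -1.29 (-1.54 to -1.04) for p38KO. Foxp3 T cells had 493 (426 to 569), 312 (265 to 365) and 246 (209 to 288) CPM, and both comparisons were past the fold, at -0.66 and -1.003. Ncr1 NK cells had 282 (247 to 320.4), 265 (231 to 302) and 152 (131 to 175) CPM, and in them p38KO alone was past the fold, at -0.89 (-1.17 to -0.61). With other settings that kept the fold of 0.5, 2 of these values fell short of it. They were that of p38KO in Cd8a T cells without Pdcd1 with classes set on thinned cells (-0.49) and that of p38i in Foxp3 T cells without the cells carrying myeloid transcripts (-0.49). Values short of the fold also moved past 0.5 downward in some settings. At their lowest, p38KO in Cd8a T cells with Pdcd1 was -0.70, p38i in those without it -0.78 and p38i in Cd4 T cells -0.55. That of p38i in NK cells went no lower than -0.27.

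The share of cells with a Klf2 transcript was lowest in the library with the lowest level, except in Foxp3 T cells. It was 30.2%, 15.4% and 25.5% of Cd8a T cells with Pdcd1, 62.3%, 51.9% and 39.8% of those without it and 57.8%, 60.1% and 35.4% of Cd4 T cells. After each cell was thinned to 1500 UMIs the last of these were 43.1%, 39.2% and 25.3%. NK cells had 56.6%, 53.6% and 38.3%. In Foxp3 T cells the shares, 49.3%, 49.6% and 61.6%, went against the levels. There the 10% of cells highest in Klf2 count held 59.5%, 54.5% and 43.2% of all its counts, so the vehicle level rested more on few cells. After thinning to 1500 UMIs the shares were 36.6%, 33.6% and 38.4%, with overlapping intervals. The lower levels of p38i and p38KO in Foxp3 T cells thus had no clear match in the shares. Other leukocytes had Klf2 too. Neutrophils had 444, 412 and 475 CPM and a transcript in 48.3%, 48.6% and 50.9% of cells, so their share is no background for this gene. Monocytes or macrophages had 115, 99.5 and 63.2 CPM, and B cells 933, 604 and 644 CPM. Dendritic cells with Fscn1 and Ccl22 give a background, with 1, 0 and 0 counts among 4, 11 and 8 cells, where 3 counts would be 97.6, 32.1 and 27.2 CPM. The highest neutrophil level was that of p38KO.

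S1pr1 (ENSMUSG00000045092, chromosome 3 from 115710433 to 115715072, minus strand), the receptor for sphingosine-1-phosphate and a direct target of KLF2, was higher in some classes and lower in others. In Cd8a T cells with Pdcd1 it had 29.8 (21.4 to 40.4), 10.2 (4.87 to 18.7) and 54.9 (33.1 to 85.8) CPM, from 41, 10 and 19 counts. The p38i library was lower, at a log2 ratio of -1.55 (-2.71 to -0.53), and the p38KO library higher, at 0.88 (0.016 to 1.70). The latter rested on few cells, since 7 of 51 held all 19 counts and a mean in which each cell weighs the same gave 0.0083. Without Pdcd1 its levels were 63.99, 94.1 and 53.4 CPM, with p38i past the fold upward at 0.56 (-0.029 to 1.14). Cd4 T cells had 141, 160.2 and 82.5 CPM, and here p38KO was past the fold downward at -0.78 (-1.22 to -0.33). Foxp3 T cells had 72.7, 105 and 90.5 CPM, and p38i was 0.54 (-0.15 to 1.25) there. Neither upward value of p38i held with classes set on thinned cells, which gave 0.41 in Cd8a T cells without Pdcd1 and -0.17 in Foxp3 T cells, and without cycling cells the former was 0.36. NK cells held 2, 4 and 7 counts, too few for a ratio.

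Klf2 was found more often in cells with S1pr1 than in cells without it. Among vehicle Cd8a T cells without Pdcd1, Klf2 was found in 32 of 33 cells with S1pr1 and in 44 of 89 cells without it. The p38i library gave 29 of 31 against 25 of 73, and the p38KO library 22 of 26 against 23 of 87. Cd4 T cells showed the same in all 3 libraries, with 40 of 48 against 27 of 68 cells, 55 of 62 against 34 of 86, and 36 of 47 against 27 of 131. The Cd4 T cells with S1pr1 had a median of 4204.5, 3663 and 3938 UMIs and those without it 4710, 3637.5 and 5691, whereas in the Cd8a T cells those with it were deeper, at 5703, 5015 and 6934 against 5274, 4812 and 5724. Cells of 1 library are no replicates, so these counts carry no test.

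Ccr7 (ENSMUSG00000037944, chromosome 11 from 99144196 to 99155077, minus strand) encodes the chemokine receptor for homing to lymph nodes. It was past the fold downward in all 3 classes with enough counts, in both comparisons. Cd8a T cells with Pdcd1 had 53.8 (42.2 to 67.5), 25.4 (16.4 to 37.5) and 23.1 (9.99 to 45.6) CPM, with log2 ratios of -1.08 (-1.80 to -0.41) for p38i and -1.22 (-2.48 to -0.16) for p38KO, the latter from 8 counts. Without Pdcd1 the levels were 102 (81.4 to 127), 53.5 (35.9 to 76.9) and 26.7 (16.7 to 40.4) CPM and the log2 ratios -0.93 (-1.60 to -0.31) and -1.94 (-2.69 to -1.24). Cd4 T cells had 118 (92.5 to 149), 78.02 (58.9 to 101) and 53.4 (40.2 to 69.5) CPM, with -0.60 (-1.13 to -0.076) and -1.15 (-1.68 to -0.62). A mean in which each cell weighs the same put the p38i value in Cd4 T cells at -0.35. Leaving out cells with myeloid transcripts put it at -0.49, and both were short of the fold. The other 5 log2 ratios were -0.63 or lower in all 9 settings in which ratios were compared. That comparison set no minimum of counts, so it cannot show that all 5 stayed past the fold. The p38i value without Pdcd1, at -0.93, is short of the alternative fold of 1. In each of these classes the vehicle library was highest and the p38KO library lowest, and in the last 2 classes the p38KO interval ended below the vehicle interval. These intervals count UMIs and not cells. Without Pdcd1 the 10% of cells highest in Ccr7 held 74.7%, 72.4% and 77.3% of its counts.

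The share of cells with a Ccr7 transcript was 13.8%, 10.3% and 9.80% of Cd8a T cells with Pdcd1, 26.2%, 18.3% and 15.04% of those without and 27.6%, 22.97% and 18.5% of Cd4 T cells. In each class the intervals of these shares overlapped between the libraries. Without Pdcd1 they were 18.7% to 35.0% in vehicle and 9.01% to 23.0% in p38KO. The share in neutrophils, chosen to lack Cd3e, was 0.0622%, 0.0546% and 0.0742%, which gives a background from free RNA in such cells. Foxp3 T cells held 12, 15 and 7 counts, and NK cells 2, 2 and 3. The highest level lay outside the T cells, in the Fscn1 dendritic cells, with 1009, 1102 and 1470.3 CPM in 4, 11 and 8 cells. B cells had 333, 46.5 and 28.01 CPM from 35, 25 and 12 cells, where the vehicle library was also highest. Few Cd8a T cells with Pdcd1 held Ccr7, and whether the libraries differed in how often these held Klf2 was not tested. Depth was uneven there, with a median of 9900, 6855 and 4498 UMIs in cells with Ccr7 and 6807, 6016.5 and 5262 in those without it. In vehicle 3 of 22 cells with Ccr7 had Klf2, against 45 of 137 without it, whereas p38i gave 4 of 14 against 17 of 122 and p38KO 4 of 5 against 9 of 46. Without Pdcd1 it was 25 of 32 against 51 of 90 in vehicle, 17 of 19 against 37 of 85 with p38i and 13 of 17 against 32 of 96 with p38KO.

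Il7r (ENSMUSG00000003882, chromosome 15 from 9505788 to 9530176, minus strand), the α chain of the IL-7 receptor, hardly differed between the Cd4 T cells of the 3 libraries, at 604 (544 to 669), 596 (541 to 656) and 593 (547 to 642) CPM. The log2 ratios there were -0.019 (-0.22 to 0.19) and -0.027 (-0.22 to 0.16). Cd8a T cells had 312 (283 to 343), 252 (222 to 285) and 119 (85.1 to 161) CPM with Pdcd1 and 308 (271 to 348), 423 (369.8 to 481) and 198 (169 to 231) CPM without it. The p38KO library was lowest in both, with log2 ratios of -1.39 (-1.89 to -0.93) and -0.64 (-0.93 to -0.35). The p38i library was not past the fold in either, at -0.31 and 0.46.

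Foxp3 T cells had 475, 486 and 343 CPM of Il7r, with neither comparison past the fold. Ncr1 NK cells had 36.3 (24.5 to 51.8), 77.6 (59.9 to 98.9) and 20.9 (13.8 to 30.5) CPM, and were past it in opposite directions, at 1.10 (0.45 to 1.77) for p38i and -0.79 (-1.60 to 0.0063) for p38KO. In p38i, 19 of 125 NK cells held all 65 counts, and without the NK cells that carried myeloid transcripts the ratio was 0.37. With classes set on thinned cells it was 0.41 for p38i and -0.21 for p38KO, both short of the fold. Monocytes or macrophages also had Il7r, at 114, 179 and 106 CPM. Their own order over the libraries was that of the NK cells. The monocyte or macrophage markers within the NK sums had another order, at 1488, 772 and 3513 CPM. The part of these cells in the NK values was not tested beyond leaving out cells with myeloid transcripts. The share of cells with Il7r was 73.6%, 64.7% and 41.2% of Cd8a T cells with Pdcd1, 62.3%, 67.3% and 49.6% of those without, 75%, 77.03% and 73.03% of Cd4 T cells and 1.12%, 2.07% and 0.668% of neutrophils.

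Tcf7 (ENSMUSG00000000782, chromosome 11 from 52252371 to 52283014, minus strand), Lef1 (ENSMUSG00000027985, chromosome 3 from 131110471 to 131224356, plus strand) and Slamf6 (ENSMUSG00000015314, chromosome 1 from 171917515 to 171953170, plus strand) mark progenitor-like T cells. Tcf7 had 99.7 (79.2 to 124), 62.8 (43.5 to 87.7) and 74.00 (56.6 to 95.1) CPM in Cd8a T cells without Pdcd1. Both other libraries lay below vehicle, p38i past the fold at -0.67 (-1.29 to -0.073) and p38KO short of it at -0.43 (-0.93 to 0.067). The p38KO ratio was at least 0.5 downward in 4 of 9 settings, counted without a minimum of counts. It was -1.02 with classes set on thinned cells and -0.82 in a mean over cells. In Cd4 T cells it had 96.9 (73.7 to 125), 129.6 (105 to 159) and 62.1 (47.8 to 79.3) CPM, highest with p38i, at 0.42, and lowest with p38KO, at -0.64 (-1.17 to -0.11). NK cells had 45.96, 44.2 and 20.9 CPM, and p38KO was at -1.13 (-1.90 to -0.38) there. Cd8a T cells with Pdcd1 and Foxp3 T cells held 13 to 28 and 3 to 14 counts per library, too few for a ratio under the rule used.

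Lef1, the partner of TCF-1, had 126 (99.8 to 158), 146 (119.6 to 177) and 71.8 (56.4 to 90.2) CPM in Cd4 T cells, and p38KO was lower at a log2 ratio of -0.82 (-1.30 to -0.34). In NK cells it had 56.8, 62.1 and 32.6 CPM, with p38KO again lower at -0.80 (-1.44 to -0.17), though at -0.15 with classes set on thinned cells. Cd8a T cells without Pdcd1 did not share this, with 73.8, 105 and 77.6 CPM and a p38KO ratio of 0.072 (-0.46 to 0.61). The p38i value there was just past the fold upward, 0.51 (-0.038 to 1.06), and 5 of the alternative settings put it below 0.5, the lowest at 0.083. Foxp3 T cells had 83.1, 64.8 and 98.5 CPM, with neither comparison past the fold.

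Slamf6, a receptor of the SLAM family, had 177, 167 and 128 CPM in Cd4 T cells and 122, 146 and 113 CPM in Foxp3 T cells, with no comparison past the fold in either, though p38KO in Foxp3 T cells (-0.11) was at 0.62 with classes set on thinned cells. Cd8a T cells with Pdcd1 had 45.03, 28.5 and 57.8 CPM, with p38i lower at -0.66 (-1.36 to 0.0032). In those without Pdcd1 it had 84.9, 103 and 59.4 CPM, with p38KO just past the fold at -0.51 (-1.07 to 0.035) and short of it, at -0.41, in a mean over cells. NK cells were lower in both, with 44.7, 23.9 and 18.6 CPM, which gave -0.91 (-1.77 to -0.084) for p38i and -1.27 (-2.07 to -0.49) for p38KO on the log2 scale. Slamf6 was also present in B cells, at 243, 223 and 187 CPM.

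Cells with Tcf7 more often held Lef1 and Slamf6 too. Lef1 was found in 24 of 46 vehicle Cd8a T cells that had Tcf7 but no Pdcd1 and in 13 of 76 without it, in 15 of 25 against 20 of 79 with p38i, and in 20 of 35 against 11 of 78 with p38KO. Here the cells with Tcf7 were deeper, at a median of 5809.5, 5282 and 7285 UMIs against 5155, 4681 and 5496.5. Slamf6 was found in 12 of 18 vehicle Cd8a T cells that had both Pdcd1 and Tcf7, and in 26 of 141 that had Pdcd1 without Tcf7. The cells with Tcf7 had a median of 7982.5 UMIs there and the others 7014. Havcr2, which encodes the exhaustion marker TIM-3, went the other way, with 2 of 18 against 55 of 141 in the same cells, and with 0 of 46 against 13 of 76 in the vehicle cells without Pdcd1. The small Tcf7 population with Pdcd1 numbered 18, 8 and 8 cells in the 3 libraries, which were 11.3%, 5.88% and 15.7% of the class, with 6.85% to 17.3%, 2.57% to 11.3% and 7.02% to 28.6% as intervals. These intervals overlap, and the share in neutrophils was 0.0622%, 0.109% and 0.297%.

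Bcl11b (ENSMUSG00000048251, chromosome 12 from 107910403 to 108003602, minus strand) was past the fold in none of its 4 measured classes, the T cell classes. It had 158 (137 to 180.0), 169.7 (145 to 197) and 219.8 (173 to 275) CPM in Cd8a T cells with Pdcd1 and 224, 238 and 218 CPM in those without. In Cd4 T cells it had 269, 293 and 293 CPM and in Foxp3 T cells 273, 292 and 291 CPM. The log2 ratios ran from 0.088 to 0.12 with p38i and from -0.037 to 0.48 with p38KO. The widest intervals allowed differences from -0.34 to 0.86. NK cells held 7, 4 and 6 counts.

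Bach2 (ENSMUSG00000040270, chromosome 4 from 32238804 to 32586108, plus strand) was the sparsest member, with 3 to 42 counts in all but 1 of the sums. Bach2it1, annotated on the same strand within it, can share its reads. In Cd8a T cells with Pdcd1 it had 30.5 (21.99 to 41.2), 18.3 (10.8 to 28.9) and 0 (0 to 10.7) CPM, from 42, 18 and 0 counts. The p38i library was past the fold downward at -0.74 (-1.62 to 0.09), a sign that turned to 0.51 when classes were set on thinned cells. The p38KO library had 0 of 51 cells with a Bach2 UMI, which allows up to 5.88% of cells with one by a floor of 3 counts and 6.98% by the exact interval, against 19.5% in vehicle. That limits cells with a UMI, not cells that express the gene. The 3 counts would be 8.67 CPM, and the upper limit of the log2 ratio to vehicle was -1.45. With 42 counts over both libraries it is not among the measured pairs. Cd8a T cells without Pdcd1 had 23.4, 20.3 and 21.8 CPM and Cd4 T cells 36.1, 27.9 and 32.03 CPM, with overlapping intervals. NK cells had 21.8, 23.9 and 17.1 CPM, and Foxp3 T cells 3, 11 and 4 counts.

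Cells with and without Pdcd1 in the same library share library and batch, so their contrast shows which members went with the absence of Pdcd1 free of differences between libraries. Tcf7, Lef1, Slamf6, Klf2 and Ccr7, 5 of the 9, were higher without Pdcd1 in all 3 libraries, and 0 were lower in all 3. These counts set no minimum of counts, and no share over all genes was computed on that basis. Of the 6 members with at least 50 counts in every library 3 were higher in all (Lef1, Slamf6 and Klf2), where 15.8% of all genes were. Tcf7 had log2 ratios of 2.29, 2.25 and 0.98 in the vehicle, p38i and p38KO libraries, and Lef1 1.91, 2.79 and 1.16. Klf2 had 1.38, 3.13 and 0.69, so its contrast was widest with p38i and narrowest with p38KO. Slamf6 had 0.91, 1.86 and 0.04 and Ccr7 0.93, 1.08 and 0.21, and both p38KO intervals include 0.

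S1pr1 was higher without Pdcd1 in vehicle and p38i but not in p38KO, with 1.10, 3.21 and -0.042. Il7r had -0.018, 0.75 and 0.74, where the vehicle library alone was near 0. Bcl11b had 0.51, 0.49 and -0.0092, and Bach2 -0.38 in vehicle and 0.15 in p38i. Whether these contrasts differed between the libraries was not tested. Pdcd1 is itself seen more often in deep cells, and the cells with it were deeper in the vehicle and p38i libraries, at 7095 against 5328 and 6068 against 4893.5 median UMIs, and shallower in p38KO, at 5096 against 6020. With the classes set on cells thinned to 1500 UMIs, 3 members were higher without Pdcd1 in all libraries, and no share over all genes was computed for that setting.

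**Figure D3:**
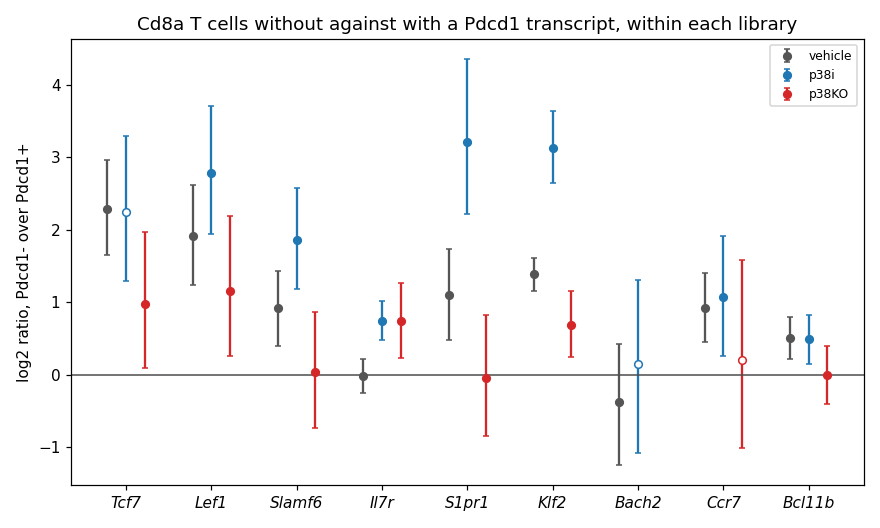
Log2 ratio of each gene between Cd8a T cells without and with a Pdcd1 transcript inside the vehicle (grey), p38i (blue) and p38KO (red) libraries. Bars are 95% counting intervals, open points have under 50 counts, and Bach2 of p38KO is left out because it had 0 counts with Pdcd1. Tcf7, Lef1 and Klf2 lie above 0 with their intervals in all 3 libraries.

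Taking all Cd8a T cells together mixes these contrasts with the makeup of the class, because 56.6%, 56.7% and 31.1% of them had Pdcd1, or 38.9%, 28.3% and 11.7% after thinning to 1500 UMIs. Lef1 had a log2 ratio of 0.71 for p38KO over all Cd8a T cells, and 0.35 once the cells with and without Pdcd1 were weighted as in vehicle, by UMIs. Tcf7 had 0.35 and then 0.038. Klf2 had -0.49 and then -0.71, so the plain sum gave a higher ratio than the weighted one for these 3 genes. Il7r had -0.83 and then -1.07, whereas Ccr7, at -1.48 and -1.55, and S1pr1, at 0.34 and 0.36, hardly depended on the weights. For p38i, whose Pdcd1 share at full depth was close to that of vehicle, the weights moved Klf2 from -0.91 to -0.86.

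Members were also counted per cell, after each cell was thinned to 1500 UMIs. At least 2 of the 9 were found in 28.9%, 16.2% and 19.6% of Cd8a T cells with Pdcd1 and in 50%, 49.04% and 32.7% of those without it. They were found in 60.3%, 68.9% and 46.1% of Cd4 T cells and 46.5%, 53.1% and 48.5% of Foxp3 T cells. NK cells had 17.1%, 11.2% and 4.94% and neutrophils 0.622%, 0.655% and 0.445%. The neutrophils were chosen to lack Cd3e, and Klf2 alone was found in 35.8%, 37.1% and 39.7% of them after thinning. Their share is thus no plain background from free RNA. The p38KO library was lowest in Cd8a T cells without Pdcd1, Cd4 T cells and NK cells, and the p38i library in Cd8a T cells with Pdcd1. The intervals of the 3 libraries overlapped in Foxp3 T cells and in Cd8a T cells with and without Pdcd1. In Cd4 T cells the vehicle interval overlapped both others, and only those of p38i and p38KO were apart. In NK cells the p38i interval overlapped both others, and only those of vehicle and p38KO were apart.

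**Figure D4:**
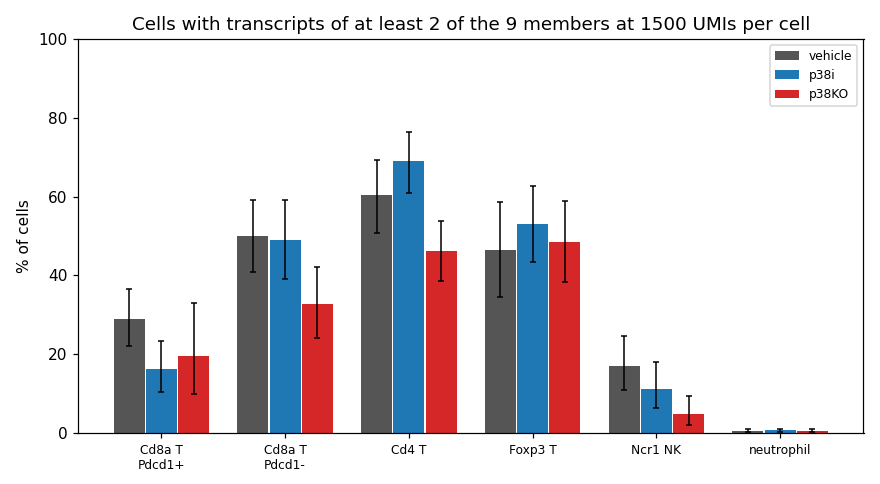
Share of cells, in percent from 0 to 100, with transcripts of at least 2 of the 9 genes after each cell was thinned to 1500 UMIs. Bars stand for 1 library each, with 95% Clopper-Pearson intervals, for 5 classes and for neutrophils. Cd4 T cells have 46.1% to 68.9% and neutrophils under 1%.

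The other naive and memory genes, a list of 28 that holds none of the members, was counted in the same way. In p38KO Cd4 T cells 7 of the 21 measured were past the fold downward and 1 upward (all genes 6.14% and 15.3%), with a median log2 ratio of -0.40 where all genes had 0.072. Pik3ip1, which restrains PI3 kinase, was at -1.25, the kinase gene Txk at -0.93, and Rgs10, a regulator of G-protein signals, at 0.90. Among p38KO Cd8a T cells without Pdcd1 8 of 20 were lower and 2 higher (all genes 7.43% and 12.1%), with a median of -0.32 against 0.076 for all genes. Pik3ip1 was at -1.29 there, Txk at -1.08, and Cd28, the costimulatory receptor, at -1.11. In NK cells 9 of 17 were lower and 2 higher with p38KO (all genes 11.4% and 10.4%), and 9 of 17 lower and 0 higher with p38i (9.26% and 6.51%), whose medians were -0.57 and -0.55.

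The Cd8a T cells with Pdcd1 had 4 of 18 of this list lower and 1 higher with p38i (all genes 6.48% and 8.99%), and 5 of 17 lower and 3 higher with p38KO (12.2% and 15.3%). With p38i the same list had 2 of 21 past the fold each way in Cd4 T cells (7.36% and 12.5%) and 5 of 20 downward with 4 upward in Cd8a T cells without Pdcd1 (6.99% and 8.44%). In the latter Dapl1 was at 1.55, the chemokine gene Xcl1 at 1.09 and Txk at -1.02. In Cd4 T cells the IL-6 receptor gene Il6ra was at 0.95, Ly6c2 at 0.80 and Cd28 at -0.94. The list thus had genes on both sides there. Foxp3 T cells had 1 of 15 of this list lower and 3 higher with p38i (8.77% and 9.33%), with a median of -0.034. With p38KO they had 3 of 15 lower and 2 higher (8.66% and 13.4%), with a median of -0.093.

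The opposite list held 25 genes of effector and exhausted T cells. In p38KO Cd4 T cells 8 of 16 were past the fold upward and 5 downward, where 15.3% and 6.14% of all genes were, with a median log2 ratio of 0.39. Ccl4 was at 5.002, from 5 counts in vehicle and 271 in p38KO, Ifng, the gene of interferon-γ, at 4.26 and Cx3cr1 at 2.40, from 12 and 107 counts. Monocyte or macrophage markers in these Cd4 T cell sums reached 880 CPM in vehicle and 1336 CPM in p38KO. The part of other leukocytes in the values of these list genes was not tested. In p38KO Cd8a T cells 6 of 16 effector genes were lower and 3 higher without Pdcd1 (all genes 7.43% and 12.1%), and 15 of 21 lower and 2 higher with Pdcd1 (12.2% and 15.3%). Without Pdcd1 the checkpoint gene Lag3 was at -3.44, Tnfrsf9 at -1.49 and Gzmb, the gene of granzyme B, at -1.40. NK cells of p38KO had 9 of 18 effector genes lower and 2 higher (all genes 11.4% and 10.4%). In p38KO the medians of the naive and effector lists had opposite signs in Cd4 T cells, at -0.40 and 0.39. In Cd8a T cells with Pdcd1 the naive median was near 0, at 0.0016, and the effector median was -1.18. Both lay below 0 in Cd8a T cells without Pdcd1, at -0.32 and -0.16, in NK cells, at -0.57 and -0.47, and in Foxp3 T cells, at -0.093 and -0.62.

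With p38i the effector list had 3 lower and 2 higher of 12 in Cd4 T cells (all genes 7.36% and 12.5%) and 4 lower and 3 higher of 16 in Cd8a T cells without Pdcd1 (6.99% and 8.44%). Ifng was at 2.57 in Cd4 T cells, Ctla4 at -1.54 and Entpd1 at 0.80. Among Cd8a T cells without Pdcd1, Cx3cr1 was at -1.39, Ctla4 at -1.07 and Tnfrsf9 at 0.96. Those with Pdcd1 had 4 lower and 3 higher of 22 effector genes (all genes 6.48% and 8.99%), with a median of 0.047. NK cells had 2 lower and 1 higher of 15 (9.26% and 6.51%). Foxp3 T cells had 7 lower and 2 higher of 13 with p38i (8.77% and 9.33%), with a median of -0.54. With p38KO they had 7 lower and 1 higher of 14 (8.66% and 13.4%), with a median of -0.62.

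Among 4350 genes, Kbtbd11, Sh3bp5, Slfn1, Dgka and Mbp had the pattern most like the mean of the 9 over the 15 class and library sums. Their Pearson correlations of log2(CPM + 10) with the mean of the members' standardized values were 0.93, 0.91, 0.91, 0.89 and 0.88. The 15 points share 3 libraries and differ in depth, so these values describe the sums and carry no p. Between members, S1pr1 and Slamf6 were closest (0.93), and Bach2 and Bcl11b farthest apart (-0.09).

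Transcripts of other leukocytes moved with the groups in several classes. All 6 neutrophil markers were found in every sum, and together they reached 2720.2, 8400.1 and 3250.1 CPM in Cd8a T cells with Pdcd1 and 1817, 4567 and 3318 CPM in Cd4 T cells. In NK cells they reached 3984, 2574 and 6129 CPM, in Cd8a T cells without Pdcd1 3417, 4532 and 3051 CPM and in Foxp3 T cells 2779, 4404 and 2148 CPM. Of the 6 monocyte or macrophage markers 5 or 6 were found, with Ms4a7 or Adgre1 at 0 where 1 was missing, and they reached 610.1, 326 and 457 CPM in Cd8a T cells with Pdcd1, 880.0, 942 and 1336 CPM in Cd4 T cells, 657, 113 and 2106 CPM in Cd8a T cells without Pdcd1, 182, 1092 and 2229 CPM in Foxp3 T cells and 1488, 772 and 3513 CPM in NK cells. Rarer types moved too. In Cd4 T cells the 5 B cell markers summed to 21.3, 86.4 and 34.9 CPM, the 6 dendritic cell markers to 8.21, 43.2 and 24.3 CPM, with Ccl22 at 0 throughout, and Trdc and Tcrg-C1 of gamma-delta T cells to 47.6, 61.3 and 1.94 CPM. The last reached 32.7, 21.3 and 119 CPM in Cd8a T cells with Pdcd1. In the other sums B cell markers reached 10.2 to 203 CPM and dendritic cell markers 0 to 25.6 CPM. Their part in the results was not tested beyond leaving out cells with myeloid transcripts. Without the cells that had at least 2 of 6 myeloid transcripts, Klf2 kept log2 ratios of -2.41 in p38i Cd8a T cells with Pdcd1 and -1.49 in p38KO Cd4 T cells. Ccr7 had -1.90 in p38KO Cd8a T cells without Pdcd1, and Il7r -1.54 in those with it. Over the remaining cells 7 of 33 pairs were lower and 2 higher with p38i, and 17 of 34 lower and 2 higher with p38KO. The share over all genes was not computed for these cells.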

How the data were processed

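The 3 samples were libraries of live CD45+ tumor cells, 1 per group, so no groups had replicates. The authors deposited raw UMI counts per gene and barcode, made with Cell Ranger 6.0.0 per the file headers, on mm10 per the labels, whose processing notes also name R 4.2.1 and Seurat 5. The libraries held 4588, 6343 and 5212 barcodes with 21675352, 25996832 and 25997636 counts. Barcodes under 1500 UMIs, under 300 genes or over 20% mitochondrial counts were left out. No doublet caller was run, and doublets were addressed by 1 alternative that left out cells with myeloid transcripts.

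Cells were placed in classes by single transcripts, and their counts were summed per class and library with Python 3.11.15, numpy 2.4.6 and scipy 1.17.1. Figures were drawn with matplotlib 3.10.9. Free RNA can place a cell in a wrong class, and a cell can lack a transcript by shallow depth. The calculation was tested on simulated data. The 9 genes, the other lists and the tests were chosen with earlier results of these data known. Besides the 9, the text names the 3 genes of largest absolute log2 ratio per list and comparison in Cd8a T cells without Pdcd1 and in Cd4 T cells, and the 5 of most similar pattern. The alternatives were no cell filter, median ratio scaling, a minimum of 20 counts, a fold of 1, classes set on thinned cells, leaving out cells with myeloid transcripts or cycling cells, a mean over cells and a stricter T cell gate. Gene positions follow GENCODE M21.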

Additional observations from a re-analysis of the deposited data

Results flagged for a closer look

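Il7r in Ncr1 NK cells was higher than vehicle in the p38i library, at a log2 ratio of 1.10, and lower in the p38KO library, at -0.79. The opposite directions brought this result here, and the difference between the 2 comparisons was not tested.

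S1pr1 went in opposite directions between cell classes of 1 library. With p38i its log2 ratio was 0.56 in Cd8a T cells without Pdcd1 and 0.54 in Foxp3 T cells but -1.55 in Cd8a T cells with Pdcd1. With p38KO it was 0.88 in Cd8a T cells with Pdcd1 and -0.78 in Cd4 T cells. These differences between classes were not tested either.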

How the results depend on the processing

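No paired analysis was possible because each group had 1 library, and for the same reason no library could be left out. With a fold of 1, the pairs past it were 1 higher and 3 lower with p38i, and 0 higher and 9 lower with p38KO. With classes set on thinned cells, 5 pairs were lower with p38i among 26 measured, and 3 members instead of 5 were higher without Pdcd1 in all libraries. Without cells carrying myeloid transcripts 2 were higher with p38i and 2 with p38KO. Without cycling cells 6 were lower with p38i and 2 higher with p38KO. A minimum of 20 counts gave 3 higher with p38KO. All other counts lay within 1.5 times those reported, with 14 to 20 lower pairs for p38KO under the settings that kept the fold of 0.5. Shares over all genes were not computed under these alternatives, so their counts cannot be set against a background. Single calls were less stable than these counts. Of the 32 log2 ratios past the fold, 16 were lost with thinned classes, by a smaller ratio, a changed sign or too few counts. Without cycling cells 12 were lost, in a mean over cells 6 and without cells carrying myeloid transcripts 5. Of the 32, 2 changed sign in any setting, both with thinned classes: S1pr1 in Foxp3 T cells with p38i, at -0.17, and Bach2 in Cd8a T cells with Pdcd1 with p38i, at 0.51. The cause was not tested. Of the 36 ratios short of the fold, 17 changed sign in at least 1 setting. Thinned classes held as few as 12 cells, which limits these values. Klf2 in p38i Cd8a T cells with Pdcd1 ranged from -2.85 to -2.14 over the settings.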
